A study of Drosophila melanogaster with 2 samples.

Results

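The 8 genes described here encode the transcription factors at the core of the ecdysone response of Drosophila melanogaster. They were chosen by name: EcR, usp, br, Eip74EF, Eip75B, Hr3, Hr4 and ftz-f1, all found in the Ensembl annotation of the dm6 assembly among 13945 protein-coding genes. Together they have 33 distinct annotated starts, of 19607 over all protein-coding genes. Binding of Dp, the obligate dimer partner of the E2F cell cycle regulators, was mapped with ChIP-seq across pooled male and female embryos aged between 0 and 24 hours. The embryos came from a transgenic line that stably expresses Dp with GFP at its carboxyl end. The 2 biological replicates, numbered 1 and 3, are the only group, so the data hold no contrast between conditions and no test between groups was possible. The labels name Dp as the target but also call these libraries an input control. Nothing in them says how far the replicates share a source, so differences between them may be technical.

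Ecdysone is the steroid hormone that times insect moulting and metamorphosis, and a pulse of it also occurs in the middle of embryogenesis. It binds a heterodimer of 2 nuclear receptors, EcR and usp. The liganded dimer switches on early genes, among them br, Eip74EF and Eip75B, whose products activate or repress later genes. Hr3 and Hr4 follow, and after them ftz-f1, which makes tissues competent for the next pulse. Most of these genes are long and use several promoters to make different proteins, so the position of Dp is given here start by start.

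A peak here is an interval called by the authors, its summit is the base of highest signal, and its signal value is the authors' own and has no stated scale. The thresholded list holds 5828 peaks, with signals from 212.8 to 12684.6 and a median of 638.6. It was derived with a test of reproducibility, but only 5768 of its peaks had a peak of both replicates over the summit. The pooled relaxed list and the list of each replicate hold 30000 peaks each and reach well below the lowest thresholded signal. At the bound member starts each peak had the same rank by signal in the thresholded and the pooled relaxed list. Depth of sequencing is unknown. A start is called bound when a thresholded summit lies within 500 bp of it.

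Dp was bound at a start of 3 of the 8 genes, namely ftz-f1, Eip75B and Hr3, and at 5 of their 33 starts. The share of genes was 37.5%, near the 42.2% of all protein-coding genes, whereas the share of starts was 15.2% against 37.2% of all starts. The starts are not separate units: 9 of the 33 are of br alone, all unbound, and merging those within 200 bp leaves 30. Of the 6 members with 3 or more starts 3 were bound, or 50%, where 60.3% of all such genes were. The hormone receptor genes EcR and usp were unbound, as were br, Eip74EF and Hr4. Away from starts the picture was different. Inside the genes and over 500 bp from any annotated start, 6 of the 8 members held a thresholded summit, where 2.2% of all protein-coding genes did. Length bears on this count. Of the 7 members of at least 30 kb 6 held one, and 12.5% of all genes of that length did; the length was set after the values were seen.

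In all, 27 thresholded summits lay in the 8 genes or within 5 kb of them. Of these 5 were at a start of the member, 12 were inside the gene and away from any start, and 10 were at the start of a neighbouring gene. Peaks from whole embryos do not show whether few cells carry much Dp at a place or many cells carry little.

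**Figure D1:**
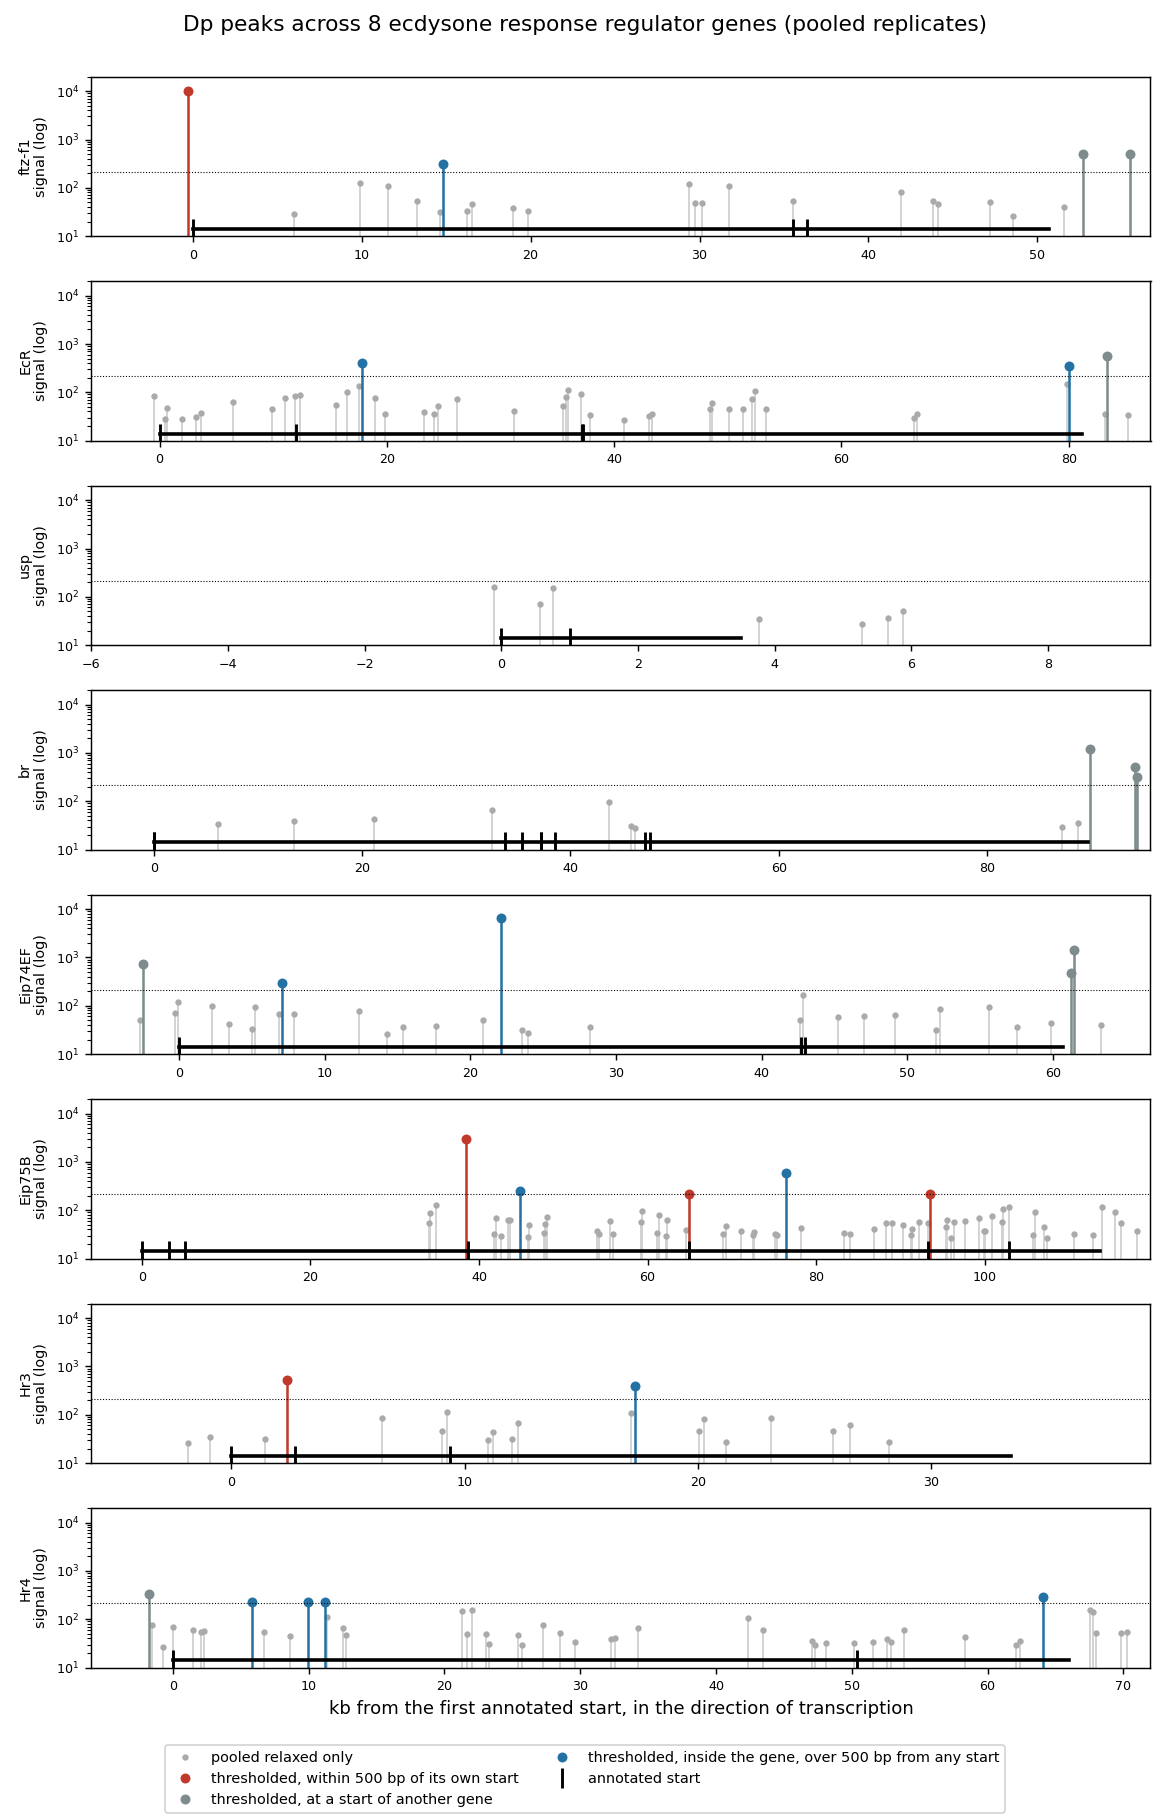
Each panel is one gene, drawn from its first annotated start in the direction of transcription (horizontal axis, kb) with 5 kb on either side, and each stem is a peak summit with its signal on a log axis. Black ticks on the gene bar are annotated starts and the dotted line is the lowest thresholded signal, 212.8. The tallest stems are at the first start of ftz-f1 (10199.5), in an intron of Eip74EF (6690.6) and at the start 38.7 kb into Eip75B (3025.5), while no stem over br reaches the line inside the gene.

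The 3 strongest summits belonging to members lay on arm 3L outside untranslated regions, and the bases within 100 bp of each are shown because they differ in the sequences that E2F and other cell cycle factors are known to bind. They were read from the reference assembly of the same build, 5′ to 3′ on the strand of the gene, with the summit at the central base. Capitals mark matches on either strand to the E2F core TTSSCGC (S is C or G), to the CHR element TTYGAA (Y is C or T), bound by MuvB complexes at cell cycle promoters, and to the DRE, TATCGATA, bound by DREF at promoters of proliferating cells. The windows are chr3L:18801484-18801684 upstream of ftz-f1, chr3L:17597099-17597299 in Eip74EF and chr3L:18026083-18026283 at Eip75B.
ftz-f1: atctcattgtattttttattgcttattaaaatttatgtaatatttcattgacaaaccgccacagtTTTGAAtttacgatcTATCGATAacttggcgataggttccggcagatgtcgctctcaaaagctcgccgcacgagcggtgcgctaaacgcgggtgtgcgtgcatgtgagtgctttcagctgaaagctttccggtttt
Eip74EF: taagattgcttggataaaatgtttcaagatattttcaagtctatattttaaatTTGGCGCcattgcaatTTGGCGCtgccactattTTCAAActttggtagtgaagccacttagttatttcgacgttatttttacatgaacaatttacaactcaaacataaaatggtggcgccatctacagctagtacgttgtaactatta
Eip75B: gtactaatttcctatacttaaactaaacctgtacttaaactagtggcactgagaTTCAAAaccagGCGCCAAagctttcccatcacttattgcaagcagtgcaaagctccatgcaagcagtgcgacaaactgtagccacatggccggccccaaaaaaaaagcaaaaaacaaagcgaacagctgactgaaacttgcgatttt
The ftz-f1 window held a CHR and a DRE, both within 33 bp of the summit, and no E2F core. The Eip74EF window held 2 copies of TTGGCGC with their first bases 16 bp apart, plus a CHR, and the Eip75B window held 1 copy of TTGGCGC, and a CHR close by, both on the other strand, so that they read GCGCCAA and TTCAAA here. A match describes letters only. Over all thresholded summits, 18.9% had an E2F core within 100 bp, 49.3% a CHR and 14.5% a DRE.

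ftz-f1, a nuclear receptor that in the early embryo works with the segmentation protein Ftz, carried the strongest peak. The gene (FBgn0001078) lies on the minus strand of 3L, from 18750607 to 18801309. The signal of that peak was 10199.5, which ranked 5 among all thresholded peaks, with 5653 in replicate 1 (rank 5) and 4563 in replicate 3 (rank 8). Only 2 of the 5891 bound genes had a stronger peak at a start. The peak ran from 18801168 to 18801986 on 3L, and its summit lay 275 bp upstream of the first start, that of transcript ftz-f1-RB, in intergenic sequence. A noncoding RNA gene, lncRNA:CR45939, starts 3 bp from ftz-f1-RB on the same strand, so the peak belongs to both. The later starts of ftz-f1 were different. At ftz-f1-RC and ftz-f1-RD, 35.6 kb further on, the pooled list had a summit of 52.6, replicate 1 had 37.9 and replicate 3 had none, and ftz-f1-RA had no summit within 500 bp in any list. One more thresholded summit, of 310.7, lay in an intron at 14.81 kb, with replicate values of 132.0 and 175.2 and an E2F core, TTCCCGC, near it.

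Eip75B, a nuclear receptor that represses later genes and binds haem, was the only member bound at more than 1 start. Eip75B (FBgn0000568) lies on the minus strand of 3L, from 17950953 to 18064696. Of its 7 starts 3 were bound, and they differed widely. Transcript Eip75B-RG, which starts 38.7 kb into the gene, had a summit 151 bp upstream with a signal of 3025.5 (rank 747), and replicate values of 1702 and 1346. Eip75B-RC and Eip75B-RA had 218.5 and 214.2, at ranks 5741 and 5812 of 5828, just inside the threshold. The members' highest values outside it were 165.4 at Eip74EF and 161.8 at usp. In replicate 1 these starts had 115.9 and 127.8, and in replicate 3 they had 108.3 and 91.6. Both of these summits lay in 5′ untranslated sequence, 53 and 275 bp downstream of the start. In the 5828 strongest peaks of replicate 3 alone neither appeared, which left 3 bound starts among the members instead of 5. Eip75B-RD had a pooled relaxed summit of 117.1, below the threshold. The first 3 starts, of Eip75B-RF, Eip75B-RE and Eip75B-RB, had none in any list, and the nearest pooled relaxed summit was between 23.5 and 28.6 kb away. The gene's first relaxed summit came at 34.0 kb, and the rest of the gene held 65 in all.

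Hr3, a nuclear receptor of the early-late class that induces ftz-f1, was bound at 1 of 3 starts. Hr3 (FBgn0000448) lies on the minus strand of 2R, from 10203995 to 10237348. The summit lay 344 bp upstream of Hr3-RC and Hr3-RI, inside an intron of the longer Hr3-RD, on 2R in a peak from 10234759 to 10235130. Its signal of 529.1 ranked 3389, and the replicates gave 247.8 and 286.8. The annotation places the start of another coding gene, CG12912, at the same base, so the 2 cannot be told apart. The start 9.39 kb into the gene, of Hr3-RA, Hr3-RF and Hr3-RH, had 114.8 in the pooled list and is shared with the gene CG46321. The first start had no summit in any list.

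The summits at 3 of the 5 bound member starts lay over 250 bp from the start. Among all 7294 bound starts 20.6% did so by their strongest summit. A limit of 250 bp would therefore keep Eip75B alone of the 8 genes, with 37.7% of all genes bound.

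The unbound members were not all alike. In the pooled relaxed list 7 of the 8 genes and 19 of the 33 starts had a summit within 500 bp, or 87.5% and 57.6%, where 60.3% of all genes and 59.2% of all starts had one. Replicate 1 also gave 7 genes and 19 starts, against 60.5% of all genes and 59.7% of all starts. Replicate 3 gave 7 genes and 18 starts, against 59.8% and 58.4%. The 14 starts with a relaxed summit but no thresholded one had pooled signals from 32.9 to 165.4. Both replicates had a summit within 500 bp of 13 of them, though not always in the same peak. The share of all such starts was not counted. Over all pooled relaxed peaks 64.3% had a relaxed peak of both replicates over the summit, which is a different measure. At 11 of the 14 the −log10 q of the pooled peak was 4.3, the highest in that list, as it was at the bound starts. Signals as far apart as 85.5 and 10199.5 had this q, so it does not rank them. The share of all relaxed peaks with it was not counted.

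**Figure D2:**
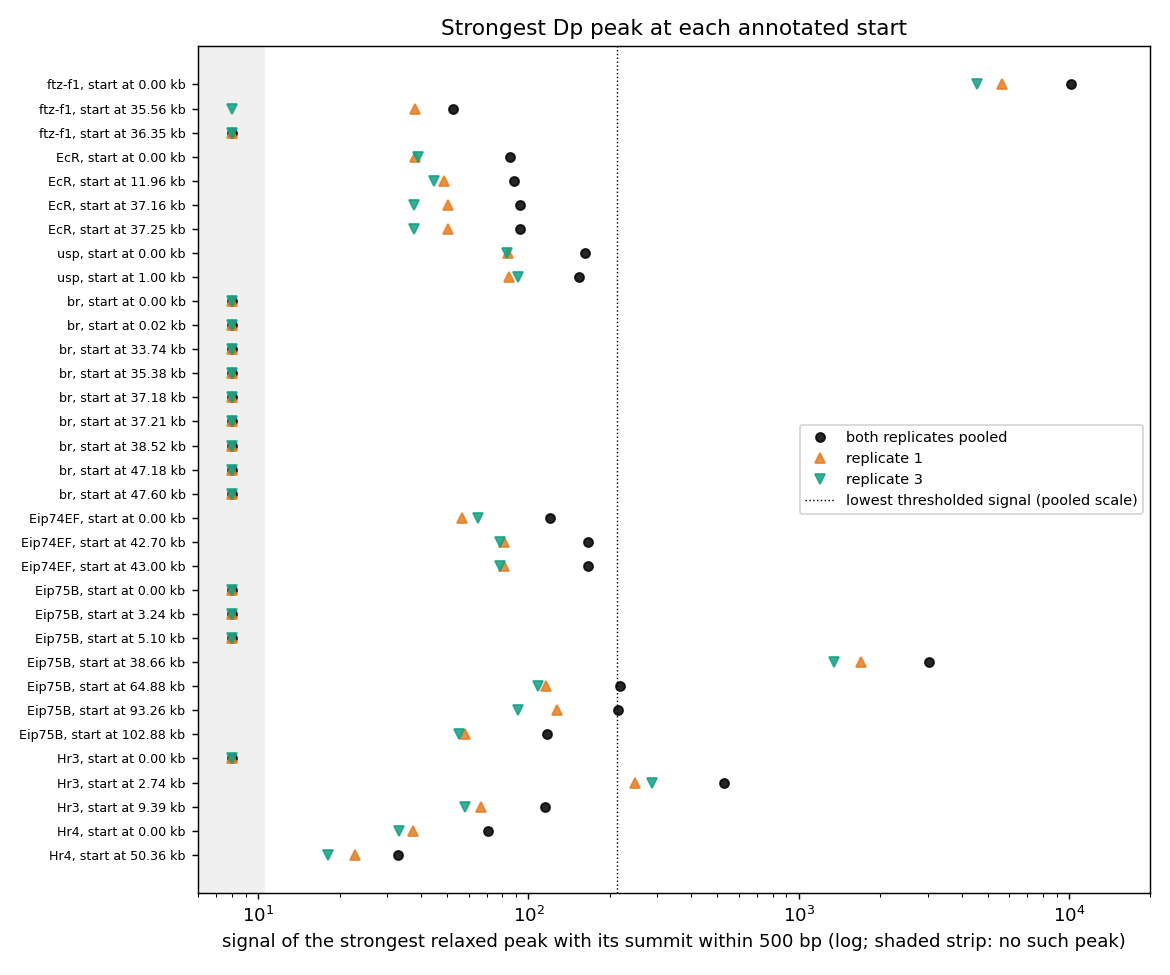
Each row is an annotated start, named by its distance from the gene's first start, and each mark is the signal of the strongest relaxed peak with its summit within 500 bp, on a log axis, in the pooled list and in each replicate. The scale may differ between lists, so the marks of a row show presence and order, not a difference. Pooled values of 5 starts lie right of the dotted line at 212.8, those of 14 lie left of it, and the 14 starts in the shaded strip, 9 of them of br, have no peak.

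usp, the partner receptor, was the closest to the threshold among the receptor genes. usp (FBgn0003964) lies on the minus strand of X, from 2038798 to 2042311. Its starts, usp-RB and usp-RA, had pooled signals of 161.8 and 154.4. Replicate values were 84.2 and 83.6 at usp-RB and 84.9 and 91.7 at usp-RA. The start of usp-RB is shared with Actn, which encodes alpha-actinin. No thresholded summit lay within 5 kb of usp, and the nearest was 8.0 kb from a start.

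EcR, the receptor that binds the hormone, had a relaxed summit at each of its 4 starts, with a lower pooled signal than usp. EcR (FBgn0000546) lies on the minus strand of 2R, from 6087873 to 6169087. Pooled values were 85.5 at EcR-RA, 88.6 at EcR-RD and EcR-RE, and 93.1 at EcR-RB, EcR-RC and EcR-RG. The last 2 starts are 81 bp apart and have the same peak. Replicate 1 gave values from 38.0 to 50.2 and replicate 3 from 37.7 to 44.7, and the order of the starts differed between them. Inside EcR 2 thresholded summits were found away from starts, an intronic one of 408.9 at 17.8 kb with an E2F core and one of 355.5 in the 3′ untranslated region.

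Eip74EF, an ETS-domain activator, had no bound start but the strongest internal peak of the group. Eip74EF (FBgn0000567) lies on the minus strand of 3L, from 17558672 to 17619325. Relaxed summits of 120.4 lay at the first start, of Eip74EF-RA, Eip74EF-RC and Eip74EF-RE, and of 165.4 at the pair of later starts, of Eip74EF-RB and Eip74EF-RD. The first start had 56.8 in replicate 1 and 65.1 in replicate 3, and the later pair had 81.0 and 78.6. The intronic summit lay between these promoters, 22.13 kb downstream of the first and 20.57 kb upstream of Eip74EF-RB, in a peak of 893 bp from 17596698 to 17597590 on 3L. Its signal was 6690.6, at rank 64 of all thresholded peaks, and the replicates gave 3241 (rank 125) and 3470 (rank 38). Of the 658 thresholded summits over 500 bp from any start it ranked 15, and of the 110 that were over 5 kb away it ranked 3. This is the window with 2 copies of TTGGCGC shown above. A weaker intronic summit of 302.3 at 7.09 kb also had an E2F core, TTCGCGC.

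Hr4, a nuclear receptor that represses early genes, had only weak relaxed summits at its starts, 70.7 at the first, used by 7 transcripts, and 32.9 at the second. Hr4 (FBgn0264562) lies on the plus strand of X, from 1941940 to 2007956. Replicate values were 37.4 and 33.3 at the first start and 22.8 and 18.2 at the second. It had 4 thresholded summits inside the gene and away from starts, where no other member had more than 2, and all ranked 4945 or lower of 5828. The 3 in introns, between 5.8 and 11.17 kb, had signals of 224.7, 223.6 and 229.7, at ranks from 5596 to 5669. The fourth, of 290.5, lay in the 3′ untranslated region. None of the 4 had an E2F core.

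br, which encodes zinc-finger proteins that specify pupal fate, had the fewest peaks for its length. br (FBgn0283451) lies on the plus strand of X, from 1575132 to 1664869. It has 9 starts over 47.6 kb, and no summit of any list lay within 500 bp of any of them. The closest pooled relaxed summit, of 28.4, was 946 bp from br-RS, and that nearest the start shared by 8 transcripts was 4735 bp away. Inside its 89.7 kb br held 9 pooled relaxed summits, the highest of 94.6. Of these 3 lay in a relaxed peak of both replicates, or 33.3%, where 64.3% of all pooled relaxed peaks did. Counted with 5 kb on either side, br had 1.20 pooled relaxed summits per 10 kb, against 2.24 over the 6 chromosome arms. The other 7 genes had from 3.95 per 10 kb (ftz-f1) to 6.18 (Hr4). The 3 thresholded summits near br, of 1231.0, 508.8 and 325.3, were downstream of it at the starts of dor, CG3740 and hfw.

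The 12 summits inside the genes and away from starts were spread over ftz-f1 (1), EcR (2), Eip74EF (2), Eip75B (2), Hr3 (1) and Hr4 (4), 10 in introns and 2 in 3′ untranslated regions. Apart from the Eip74EF peak they were weak: the other 11 had signals from 223.6 to 584.0, all below the median of the list. In Eip75B they were 255.1 at 44.89 kb and 584.0 at 76.42 kb, and in Hr3 398.7 at 17.31 kb. The Hr3 summit also lies in introns of CG12912 and CG46321, and the ftz-f1 summit in one of lncRNA:CR45939.

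The sequences around the summits were compared by position. An E2F core lay within 100 bp of 6 of the 12 internal summits, of 2 of the 5 at member starts, both in Eip75B, and of 0 of the 10 at starts of neighbouring genes. Over the 658 thresholded summits away from starts 24.6% had one, and over all thresholded summits 18.9%. A DRE lay at 0 of the 12 internal summits, where 6.08% of the 658 had one, and 12 are too few to set apart from that share. It was found at 1 of 5 summits at member starts and 6 of 10 at neighbouring starts, against 14.5% of all thresholded summits. The share over summits at starts alone was not counted for either motif. CHR was found at 12 of the 27 summits, or 44.4%, and the GAGA sequence GAGAG at 9, or 33.3%, against 16.9% of all summits, 22.0% of the 658 and 22.6% of windows of the same size centred 500 bp to either side of all summits. The nuclear receptor core sequence AGGTCA was at none of the 27, and at 3.45% of all summits. No test was made on these small numbers.

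At these 27 summits the signals of the 2 replicates were set side by side, although the scale of each list is not stated. Replicate 3 less replicate 1, on the log2 scale, was -0.05 at the median summit (SD 0.28, n = 27). For the 5768 thresholded peaks that both replicates had, the median was -0.18 (SD 0.48). Over the 27 the difference ranged from -0.55, at the intronic summit of Eip75B at 44.89 kb, to 0.52, at hfw beside br, where replicate 3 had 1 peak for 2 pooled summits. It was positive at 13 summits and negative at 14. Because the scales may differ, the level and sign of this difference are not read as a change in Dp, only its spread. The thresholded list was derived with a test of reproducibility, and whether that narrows this spread was not tested.

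**Figure D3:**
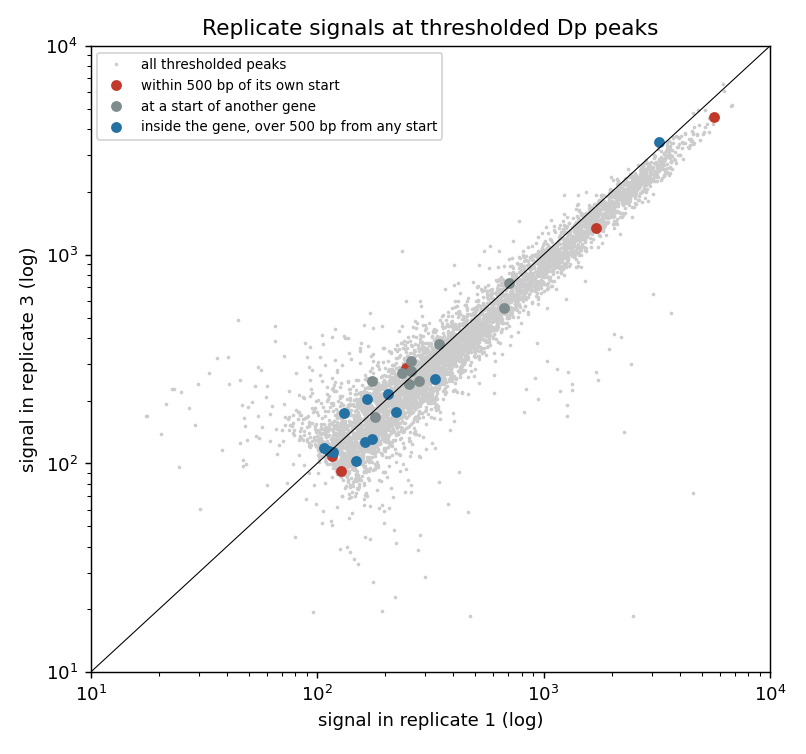
Each point is a thresholded peak with its signal in replicate 1 (horizontal) and replicate 3 (vertical), both on log axes, and the line marks equal values. Coloured points are the 27 summits in or near the 8 genes. The ftz-f1 peak (5653 and 4563) and the Eip74EF intronic peak (3241 and 3470) lie among the strongest, and the coloured points lie among the grey ones.

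Other genes of the hormone's pathway, taken from lists set by textbook role, were mostly unbound. Of 53 genes in 4 lists 13 had a thresholded summit at a start, or 24.5%, against 42.2% of all genes. In the pooled relaxed list 34 of the 53 had a summit at a start, where 60.3% of all genes did. Ecdysteroid synthesis had 3 of 15, with mld, a zinc-finger activator of synthesis genes, at 2599.3, dare, an adrenodoxin reductase, at 1249.0 and Npc1a, a sterol transporter, at 337.8. The enzyme genes nvd, spo, spok, sro and phm had no summit at a start in any list. Receptor cofactors and hormone transport had 4 of 7, with rig at 3363.2, Alien at 540.5, trr, a histone methyltransferase, at 497.6 and tai, a coactivator, at 473.5. Unbound there were Smr, EcI, the importer of the hormone, and DopEcR, each with a weaker relaxed summit.

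Response genes had the lowest share of thresholded summits, 3 of 25: Hr39 at 1487.1, crol at 504.6 and Eip63E at 324.8. In the pooled relaxed list 15 of the 25 had a summit at a start, against 60.3% of all genes. Eip78C, Eip93F, Eip71CD, Eip55E and Eip63F-1 were unbound, and all but Eip93F had a weaker relaxed summit. In signalling by the brain hormone PTTH through the receptor kinase tor, 3 of 6 were bound, phl (Raf kinase) at 4354.5, tor at 3398.8 and csw at 1499.5, while Ptth, Dsor1 and rl were not. Among 15 nuclear receptor genes outside the 8, 4 were bound (26.7%), with Hnf4 at 3974.5, Hr39 at 1487.1, Hr96 at 486.9 and ERR at 373.3. Eip78C, Hr38, Hr51, Hr78 and Hr83 were not. With relaxed summits counted, 9 of these 15 had one at a start. Values of bound genes had a median of 735.5 over the genome, so ftz-f1 and Eip75B stood above it and Hr3 below.

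**Figure D4:**
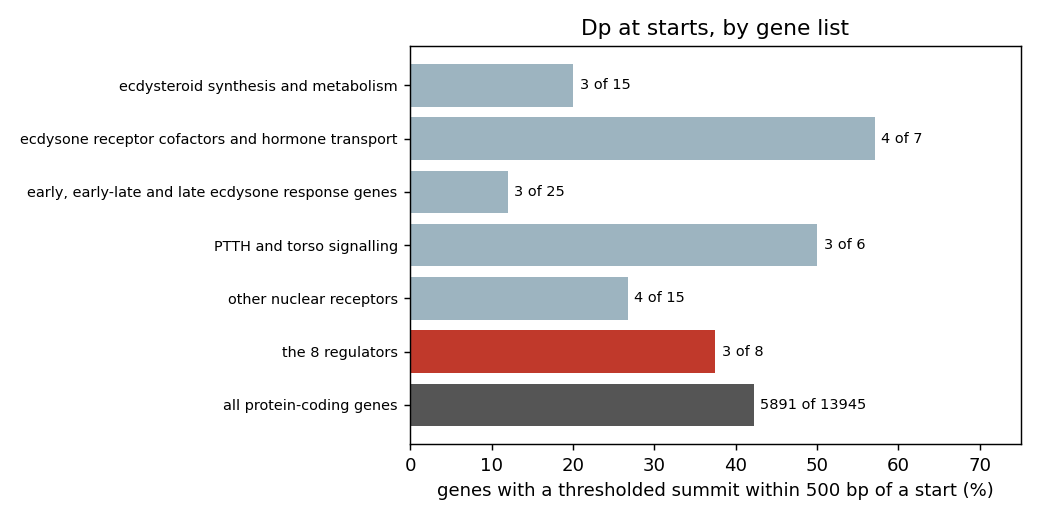
Bars give the percentage of genes in each list with a thresholded summit within 500 bp of a start (horizontal axis, from 0), with counts beside them. The 8 regulators (3 of 8) are close to all protein-coding genes (5891 of 13945), and the response genes (3 of 25) have the lowest share.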

How the data were processed

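Per the notes the authors deposited with the lists, peaks were called on dm6 for each replicate and for both pooled, each against the same separate control, and the thresholded list was derived from these by irreproducible discovery rate. Neither aligner nor peak caller is named in those notes or the labels. The authors deposited for each peak a signal value, a −log10 q and the offset of the summit, a position counted from the peak start. The scale of the signal is not stated, and values were compared within a list, apart from the log2 difference between replicates. Fragments were sheared to between 200 and 800 bp, per the labels.

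Starts came from all transcripts in Ensembl release 115, and coordinates are 1-based. Nearest starts counted noncoding genes but not transposable elements. A replicate's value at a thresholded peak is that of its relaxed peak over the summit, nearest summit first; at a start, that of the strongest relaxed summit within 500 bp. Either strand was scanned for motifs, up to 100 bp from a summit. Placement was tested on simulated data and run in Python 3.11.15 with numpy 2.4.6 and pandas 2.3.3. Members and lists were chosen with earlier results of these data known, so no test of a list was made. The 8 members were named throughout, and of other lists up to 5 bound genes of highest signal and up to 5 unbound ones in list order. The window of Hr4 chosen by the rule for sequences lies at the start of CG3857 and is not shown. Sequence came from the RefSeq copy of dm6. The alternatives changed distance, list, assignment, margin and motif window, and those on gene length, a 2 kb distance and internal summits were added after seeing the data.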

Additional observations from a re-analysis of the deposited data

How the results depend on the processing

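With a distance of 250 bp, 1 member and 2 member starts were bound, since the ftz-f1 and Hr3 summits lie further off; with 1000 bp the counts were 3 and 5, and in the pooled relaxed list 8 members and 22 starts. Of all protein-coding genes 37.7% were bound at 250 bp and 45.3% at 1000 bp. Leaving out a replicate kept ftz-f1, Eip75B and Hr3, and gave from 3 to 5 bound starts. The share of all genes was then 40.4% without replicate 1 and 42.4% without replicate 3. The ftz-f1 peak ranked 8 without replicate 1 and 5 without replicate 3. Among the 2914 strongest thresholded peaks 2 members (ftz-f1 and Eip75B) were bound, where 23.9% of all genes were. Bound by that rule too were 2 member starts, 7 other pathway genes and 2 other nuclear receptors. There 6 summits lay in or near the members, 1 of them internal and away from starts (an alternative added after seeing the data). Giving each summit only to its nearest start left 2 members, losing ftz-f1 to lncRNA:CR45939 by 3 bp, and 2 other nuclear receptors. By that assignment 32.6% of all genes were bound. Of the 27 summits 16 lay in the genes themselves and 10 had a member's start as the nearest, and leaving out a replicate gave from 21 to 28. Merging starts, using coding transcripts only, whole intervals in place of summits and other motif windows moved no count of members, starts or E2F cores by over 1.5 times. With internal summits over 2 kb from any start, 6 members held one, and among genes of at least 20 or 50 kb 11.5% and 14.3% did (added after seeing the data). Sequencing depth is unknown, so the lack of a summit means only that none was listed.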
